A study of Mus musculus with 4 samples.

Results

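Mucins and the genes of mucus-making goblet cells were followed in RNA-seq libraries of sorted mouse alveolar type 1 (AT1) cells, the thin cells of the lung's gas-exchange surface. The members were taken by symbol from the per-library expression tables: Muc1, Muc4, Muc5ac, Muc5b, Muc16, Muc20, Tff2, Tff3, Agr2 and Spdef. Of these 10 symbols, 9 were found among 23991, each at a single entry, and no entry named Muc16 was found in the tables used here. The 4 libraries came from littermate mice of a mixed B6 and 129 background at postnatal day 3 or 4. In every animal Cre recombinase was expressed from Scnn1a, a gene of the epithelial sodium channel. In 2 libraries the genotype label adds a Sox2 transgene at 1 Rosa allele (Scnn1a-Cre; Rosa[Sox2/+], called labelled Sox2). In the other 2 it adds the mTmG membrane reporter there (Scnn1a-Cre; Rosa[mTmG/+], called labelled WT). Sox2 is a transcription factor of the airway epithelium, and the study asked what it does in AT1 cells. No label ties the libraries of a group to separate animals, so the p-values reflect the spread of these libraries only, which may be technical.

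Mucus is built from mucins, very large proteins covered with sugar chains that are attached through the oxygen of serine and threonine. Gel-forming mucins such as Muc5ac and Muc5b are secreted by goblet and other secretory cells of the airway, while Muc1, Muc4 and Muc20 stay anchored in the cell membrane. Agr2 is an endoplasmic reticulum protein that helps mucins fold, trefoil factors (Tff) are small peptides secreted together with mucins, and Spdef is the ETS-family factor that drives goblet cell differentiation. Goblet cells belong to the conducting airway and are not a normal part of the alveolus.

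Expression is given as FPKM, the number of fragments scaled by transcript length and by the number of mapped fragments, so levels of different genes can be compared per length. Each deposited value carries a lower and an upper bound for that library, so separate bounds are not a test between the labels. Whether values of the groups overlap is given as a description only, with no share over all genes beside it. Differences are labelled Sox2 minus labelled WT on the log2(FPKM + 1) scale. They were tested in limma over the 12040 genes whose mean reached 1 FPKM, and p-values were adjusted over all of those genes.

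Sox2 itself ran against the labels, at 1.41 and 1.99 FPKM in the Sox2-labelled libraries and at 302 and 477 FPKM in those labelled WT. The fitted difference was -7.15 (SE 0.34, limma adjusted p = 2.39e-06). Directions below follow the labels as deposited, so "higher in the WT-labelled libraries" means higher where Sox2 RNA was high. The Sox2-labelled libraries also had the higher AT1 markers (summed level of 10 markers 6132 and 7268 FPKM against 1257 and 784 FPKM). Their AT2 markers, genes of the surfactant-making alveolar cells, were higher too (25324 and 17519 FPKM against 5995 and 976 FPKM). In labelled WT replicate 2, small RNA genes took 50.9% of the summed FPKM, against 5.76% to 19.3% in the other libraries. Across all tested genes the median difference was -0.29.

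Promoter windows were available from RefSeq (build GRCm38.p6) for Muc1, Muc4, Muc16, Muc20, Agr2 and Spdef. Those of Agr2, Muc1 and Muc20 are printed because they belong to members that passed the test, Agr2 in one direction and the membrane mucins in the other. Each window holds the 250 bases before and the 50 bases from the transcription start site, 5′ to 3′ on the gene's strand, and each start site coincides with the 5′ end of the gene's deposited locus. Capitals mark every match, on either strand, to the short core motifs searched: SOX (ACAAAG or ACAATG), FOXA (TGTTTAC or TGTTTGC), NKX2-1 (CAAGTG), ETS (AGGAAG) and the TATA box (TATAAA or ATAAAT).
Agr2, chr12:35992675-35992974, plus strand: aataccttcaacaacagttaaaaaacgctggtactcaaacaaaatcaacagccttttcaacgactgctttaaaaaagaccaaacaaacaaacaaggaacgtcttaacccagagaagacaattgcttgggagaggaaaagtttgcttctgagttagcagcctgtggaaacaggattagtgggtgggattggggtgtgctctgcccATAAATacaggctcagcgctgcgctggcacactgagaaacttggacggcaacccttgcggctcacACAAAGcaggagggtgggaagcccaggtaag
Muc1, chr3:89228806-89229105, plus strand: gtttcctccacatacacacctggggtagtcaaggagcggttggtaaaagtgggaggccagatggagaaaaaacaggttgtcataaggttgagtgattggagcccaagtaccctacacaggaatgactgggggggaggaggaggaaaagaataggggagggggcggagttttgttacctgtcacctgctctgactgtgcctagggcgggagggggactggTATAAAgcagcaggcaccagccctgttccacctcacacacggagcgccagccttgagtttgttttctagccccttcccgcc
Muc20, chr16:32797386-32797685, minus strand: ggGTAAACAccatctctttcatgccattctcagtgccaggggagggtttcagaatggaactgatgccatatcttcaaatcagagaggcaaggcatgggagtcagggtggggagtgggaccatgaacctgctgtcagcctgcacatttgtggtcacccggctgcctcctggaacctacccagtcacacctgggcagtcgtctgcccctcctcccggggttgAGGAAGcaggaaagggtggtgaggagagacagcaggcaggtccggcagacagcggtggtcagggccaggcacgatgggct

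The Agr2 window has a single SOX core, ACAAAG, starting at base 20 from the start site, and an A/T-rich ATAAAT starting 46 bases before it. The Muc1 window has TATAAA 31 bases before the start site and none of the other motifs. The Muc20 window has a FOXA core on the strand opposite to the printed one (GTAAACA, 248 bases before the start site) and an ETS core (AGGAAG, 30 bases before it). Among the windows not printed, Muc4 has TATAAA 36 bases before its start site and CTTCCT, the ETS core on the opposite strand, at base 43 from it. Spdef has AGGAAG 40 bases before its start site and CTTCCT at base 18 from it. Muc16 has CTTCCT at base 30 from its start site. Such short motifs are common. Over 32851 promoter windows of the same length, 28.6% hold a SOX core, 8.48% a FOXA core, 13.6% the NKX2-1 core, 35.4% the ETS core and 21.7% a TATA box match. The matches describe these letters only.

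Muc5ac, the inducible gel-forming mucin of airway goblet cells, was higher in the WT-labelled libraries and close to the bottom of the scale in those labelled Sox2. In labelled WT replicates 1 and 2 it ranked 9445 and 3828 from the top of 23990 genes. It lies on chromosome 7 (mm10, 141789011 to 141819135). It stood at 0.0463 and 0.0465 FPKM in the Sox2-labelled libraries and at 3.61 and 14.5 FPKM in those labelled WT. The groups did not overlap, and the WT-labelled libraries differed from each other more than those labelled Sox2. The bounds ran from 0.00854 to 0.0845 FPKM over the Sox2-labelled libraries, and from 3.36 to 15.1 FPKM over those labelled WT. Bounds that wide correspond to about 13 and 6 fragments in the Sox2-labelled libraries and to about 819 and 2315 in those labelled WT. This assumes that the half-width is 2 standard deviations of a fragment count. The only check was whether implied fragments came out whole, and 17 of 30 member values lay within 0.1 of a whole number. Muc5ac was 195-fold higher in the WT-labelled libraries (9.04 ± 7.68 FPKM, SD, n = 2, against 0.0464 ± 0.000168 FPKM, SD, n = 2). The difference of -3.01 (SE 0.53) passed the threshold (limma adjusted p = 0.00595) and was -2.72 relative to the median of all tested genes. Muc5ac reached the mean of 1 FPKM only through the WT-labelled libraries, so it had to differ to be tested. The fold was 312 without labelled WT replicate 1 and 77.9 without labelled WT replicate 2, and the call did not hold without labelled Sox2 replicate 2 (limma adjusted p = 0.0734).

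Muc5b, the gel-forming mucin that healthy airways make at all times, is the next mucin gene on the chromosome, 19.9 kb from Muc5ac, and was low in every library. It was listed at 0.00401 and 0.0436 FPKM in the Sox2-labelled libraries and at 0.0391 and 0.232 FPKM in those labelled WT. The groups overlapped, and labelled WT replicate 2 had the highest value. At about 2 to 63 fragments under the assumption above, Muc5b stayed under the mean of 1 FPKM needed for testing. The other gel-forming mucin genes of the same cluster, Muc2 of the intestine and Muc6 of the stomach, lay between 0.0197 and 0.420 FPKM in all libraries. Within this cluster only Muc5ac exceeded 1 FPKM in any library.

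Agr2 was higher in the same libraries as Muc5ac, though at lower levels. It lies on chromosome 12 (35992925 to 36004081) and stood at 0.261 and 0.227 FPKM in the Sox2-labelled libraries and at 2.03 and 3.95 FPKM in those labelled WT. The groups did not overlap, and their bounds did not either (upper bounds of 0.495 and 0.548 FPKM against lower bounds of 1.31 and 2.74 FPKM). These bounds correspond to about 5 and 2 fragments against 32 and 42. Like Muc5ac, this gene reached the mean of 1 FPKM only through the WT-labelled libraries and had to differ to be tested. Agr2 was 12.3-fold higher in the WT-labelled libraries (2.99 ± 1.36 FPKM, SD, n = 2, against 0.244 ± 0.0246 FPKM, SD, n = 2), with a difference of -1.64 (SE 0.41, limma adjusted p = 0.0257). The call was lost under median-of-ratios rescaling (limma adjusted p = 0.05004) and quantile normalization (0.0581), and without labelled Sox2 replicate 1 (0.125) or 2 (0.185).

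Spdef, the driver of the goblet cell programme, did not go with Muc5ac and Agr2. Its levels were 0.309 and 0.513 FPKM in the Sox2-labelled libraries and 0.155 and 0.255 FPKM in those labelled WT. The values did not overlap between the groups and were higher in the Sox2-labelled libraries, but the bounds of the libraries overlapped (0.159 to 0.798 FPKM against 0.0378 to 0.436 FPKM). With about 7 to 17 fragments a library, Spdef was too low to be tested.

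The trefoil factors were hardly represented. Tff3, a trefoil peptide of intestinal and airway goblet cells, was listed at 0 in all 4 libraries. Tff2, its relative of gastric mucous cells, was listed at 0 in replicate 1 of both labels and at 0.170 and 0.276 FPKM in replicate 2 of labelled Sox2 and labelled WT. Those values correspond to about 1 and 2 fragments. Tff1, the third gene of this cluster on chromosome 17, was listed at 0 throughout as well.

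**Figure D1:**
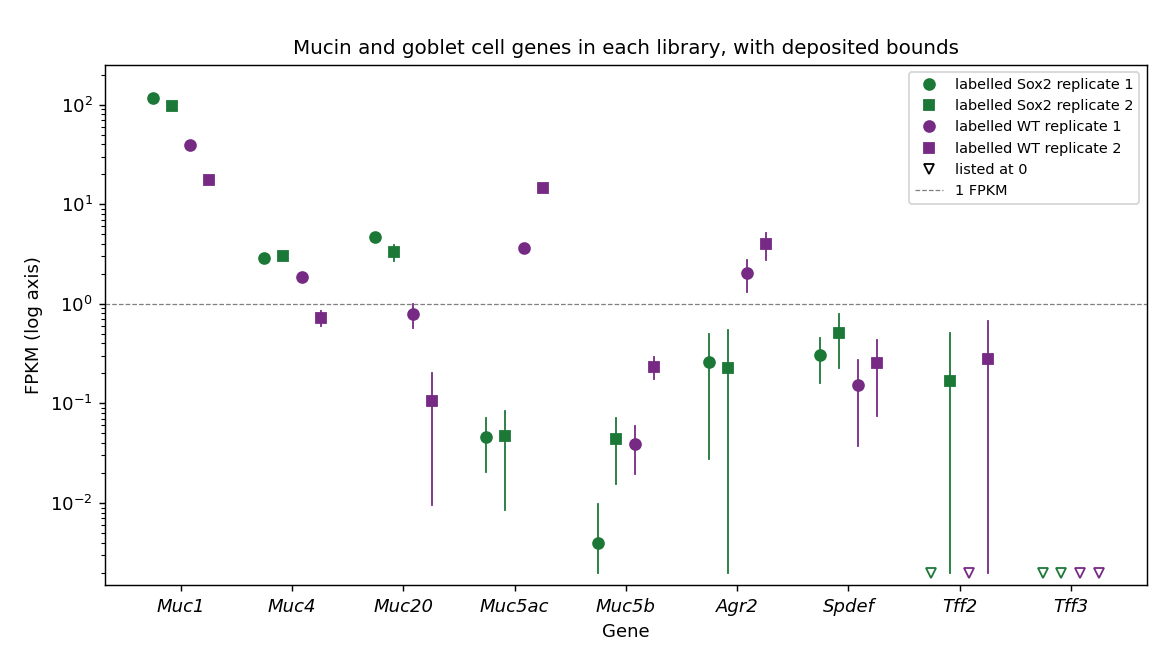
FPKM of the 9 genes found, on a log axis, in each library, with the deposited lower and upper bounds as vertical lines (bounds that reach 0 end at the bottom marks, and open triangles are values listed at 0). Muc1, Muc4 and Muc20 sit higher in the Sox2-labelled libraries, while Muc5ac and Agr2 sit higher in those labelled WT, and Muc5b, Spdef, Tff2 and Tff3 stay below 1 FPKM in every library.

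The membrane mucins went the other way. Muc1, a transmembrane mucin found on many epithelia including alveolar cells, was the most abundant member in every library. It lies on chromosome 3 (89229056 to 89233381). It stood at 117 and 97.2 FPKM in the Sox2-labelled libraries, where it ranked 445 and 439 from the top of 23990 genes. In the WT-labelled libraries it stood at 39.5 and 17.6 FPKM and ranked 1690 and 3221. The groups did not overlap. Muc1 was 3.76-fold higher in the Sox2-labelled libraries (107 ± 14.2 FPKM, SD, n = 2, against 28.6 ± 15.4 FPKM, SD, n = 2), with a difference of 1.97 (SE 0.39, limma adjusted p = 0.00936). The fold was 6.08 without labelled WT replicate 1 and 2.72 without labelled WT replicate 2. The call did not hold without labelled Sox2 replicate 1 or 2 (limma adjusted p of 0.0653 and 0.0704).

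Muc20, a small membrane mucin best known from kidney and other epithelia, showed the same direction at lower levels. It stood at 4.67 and 3.28 FPKM in the Sox2-labelled libraries, and at 0.789 and 0.105 FPKM in those labelled WT. The 2 groups were apart, and the lowest value, in labelled WT replicate 2, corresponds to about 5 fragments. This gene reached the mean of 1 FPKM only through the Sox2-labelled libraries, so it had to differ to be tested. Muc20 was 8.89-fold higher in the Sox2-labelled libraries, with a difference of 1.81 (SE 0.42, limma adjusted p = 0.0190). That fold was 38.0 without labelled WT replicate 1 and 5.04 without labelled WT replicate 2, and the call did not hold without labelled Sox2 replicate 1 or 2 (limma adjusted p of 0.124 and 0.0928).

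Muc4, a large membrane mucin that binds the receptor ErbB2, stood at 2.86 and 3.05 FPKM in the Sox2-labelled libraries. In those labelled WT it stood at 1.84 and 0.716 FPKM. The groups did not overlap, but the difference of 0.84 (SE 0.41) did not pass the threshold (limma adjusted p = 0.200). Muc4 (32735886 to 32782390) and Muc20 (32777419 to 32797435) lie on chromosome 16 on opposite strands and overlap at their 3′ ends. In the GENCODE M21 annotation their exons share 627 bases, 15.6% of the exonic bases of Muc20. The strand setting of the authors' counting is not given in the sources used here, so fragments from the shared stretch cannot be assigned to one of the genes. Muc16, a further membrane mucin, has no value here.

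Among the 5 tested members, 2 passed as higher and 2 as lower in the Sox2-labelled libraries. Over all tested genes 4.2% were called higher, 8.11% lower and 12.3% in either direction. Muc5ac and Agr2 reached the mean of 1 FPKM only through the WT-labelled libraries, and Muc20 only through those labelled Sox2. Such genes had to differ to be tested, so the count of calls among the members is a description and not a result about them. The other 4 members found were under that mean. In bulk RNA, fewer cells of a type and less RNA per cell cannot be told apart. Rescaling changed the balance of calls over all genes, from 34.1% higher to 58.4% under median-of-ratios rescaling and 54.2% under quantile normalization. The directions of the 5 tested members were the same under both.

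**Figure D2:**
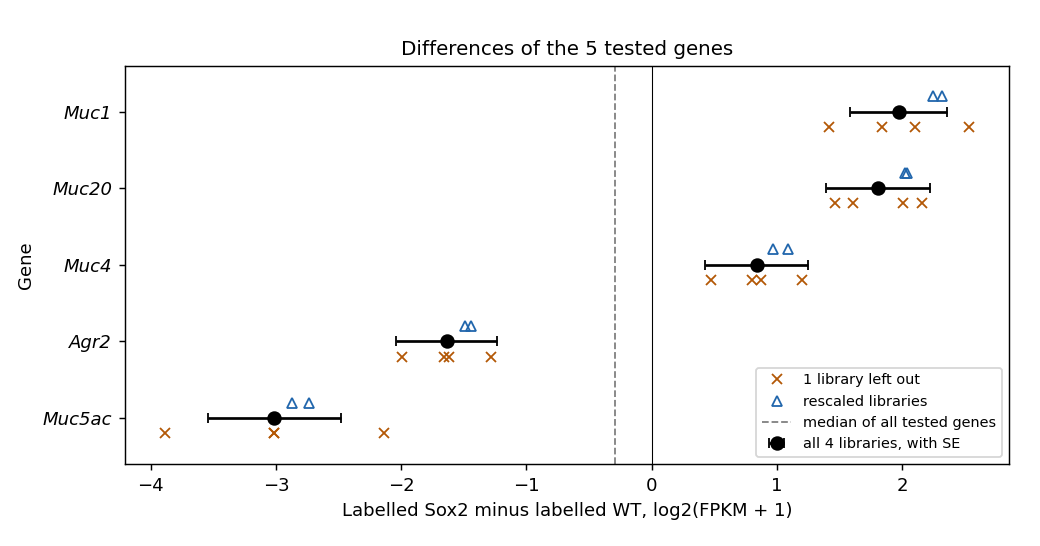
Difference between the labels for the 5 tested members on the log2(FPKM + 1) scale. Black points with SE bars are the fit of all 4 libraries, crosses leave out 1 library each, triangles are the 2 rescalings, and the dashed line is the median of all tested genes at -0.29. Muc1 (1.97), Muc20 (1.81) and Muc4 (0.84) lie to the right of 0 and Agr2 (-1.64) and Muc5ac (-3.01) to the left at every setting drawn.

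The make-up of the mucin RNA differed between the labels. Per length, Muc1 accounted for 93.9% and 93.8% of the summed FPKM of Muc1, Muc4, Muc20, Muc5ac and Muc5b in the Sox2-labelled libraries. In labelled WT replicate 1 it accounted for 86.3% and Muc5ac for 7.90%. In labelled WT replicate 2 the shares were 53.2% for Muc1 and 43.6% for Muc5ac, so that the level of Muc1 was only 1.22 times that of Muc5ac. In the Sox2-labelled libraries that ratio was 2533 and 2089. The sum of the 5 mucins was 125 and 104 FPKM in the Sox2-labelled libraries and 45.7 and 33.2 FPKM in those labelled WT.

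Enzymes that build the sugar chains of mucins held calls in both directions. Of 27 listed genes, 15 were tested: 2 were higher and 2 lower in the Sox2-labelled libraries, and 11 did not pass. Over all tested genes 4.2% were called higher and 8.11% lower, so these small counts only describe the list. The median difference of the tested enzymes was -0.30, beside -0.29 for all tested genes. Galnt genes encode the family of enzymes that attaches the first sugar, and the activity of its single members was not measured here. Galnt18 stood at 121 and 138 FPKM in the Sox2-labelled libraries against 10.1 and 12.1 FPKM (difference 3.43, SE 0.31, limma adjusted p = 2.42e-04). Galnt1 (18.8 and 13.1 against 73.0 and 36.9 FPKM) and Galnt12 (0.951 and 0.509 against 4.69 and 5.68 FPKM) were lower there, with limma adjusted p of 0.0194 and 0.0136. Galnt12 reached the mean of 1 FPKM only through the WT-labelled libraries, so it had to differ to be tested. The sialyltransferase St6galnac2 was higher (28.1 and 22.3 against 10.0 and 4.13 FPKM, limma adjusted p = 0.0197). The call of Galnt18 held with any 1 library left out. Galnt1, Galnt12 and St6galnac2 each lost theirs without labelled Sox2 replicate 1 or 2, Galnt1 also without labelled WT replicate 1 and St6galnac2 also without labelled WT replicate 2.

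Several low enzymes of this list were under the mean of 1 FPKM and are given as values only, chosen after their values were seen. B3gnt6, which makes the core 3 sugar structure of intestinal mucins, stood at 0.0817 and 0.0296 FPKM in the Sox2-labelled libraries and at 0.498 and 1.84 FPKM in those labelled WT. Gcnt3, a branching enzyme of mucin sugars, was listed at 0 and 0.0157 FPKM against 0.448 and 0.392 FPKM. The fucosyltransferase Fut2, which sets the secretor status of mucous surfaces, stood at 0.118 and 0 FPKM against 1.11 and 0.980 FPKM. Not all of the 12 untested enzymes ran that way. Galnt5 and Chst4 were higher in both Sox2-labelled libraries, others overlapped between the groups, and Galnt14 was listed at 0 throughout. These orders were not set beside those of all untested genes, so they describe these enzymes only.

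Secretory products of goblet cells were mostly absent or did not pass. Of 31 listed genes 14 were tested, and 11 did not pass. In the Sox2-labelled libraries 2 were higher and 1 was lower, beside 4.2% and 8.11% of all tested genes. The median difference of the 14 was 0.55, beside -0.29 for all tested genes. Agr3, a relative of Agr2 that lies 43.2 kb from it, was higher in the WT-labelled libraries, as Agr2 was (1.70 and 0.719 against 8.78 and 6.24 FPKM, difference -1.97, SE 0.42, limma adjusted p = 0.0134). The iron-scavenging Lcn2 was higher in the Sox2-labelled libraries (67.9 and 57.3 against 29.4 and 6.40 FPKM, limma adjusted p = 0.0302), as was the chloride channel Ano1 (108 and 119 against 60.2 and 16.3 FPKM, 0.0367). Under the robust variance model Lcn2 (limma adjusted p = 0.130) and Ano1 (0.0895) lost their calls, as they did on leaving out labelled Sox2 replicate 1, labelled Sox2 replicate 2 or labelled WT replicate 2, and for Ano1 the variance model without trend (0.0563). Agr3 lost its call without labelled Sox2 replicate 1 or 2 (limma adjusted p of 0.0508 and 0.205). The untested 17 genes did not exceed 0.914 FPKM in any library. Among them were the goblet cell products Clca1 and Fcgbp, and 6 genes (Bpifa1, Dmbt1, Itln1, Zg16, Retnlb and Galntl5) were listed at 0 throughout.

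Regulators of goblet cells also held calls in both directions. Of 20 listed genes 15 were tested, and 11 did not pass. In the Sox2-labelled libraries 1 was higher and 3 were lower, beside 4.2% and 8.11% of all tested genes. The median difference of the 15 was -0.12, beside -0.29 for all tested genes. Such small counts only describe the list. Ehf, an ETS-family factor of epithelia and a relative of Spdef, stood at 1.78 and 2.03 FPKM in the Sox2-labelled libraries and at 13.8 and 45.1 FPKM in those labelled WT (difference -3.17, SE 0.50, limma adjusted p = 0.00348). Foxq1, a forkhead factor known for Muc5ac expression in the stomach, stood at 4.44 and 5.85 FPKM against 22.5 and 63.8 FPKM (-2.68, SE 0.46, limma adjusted p = 0.00528). Both kept their calls with any 1 library left out. Il4ra, a receptor chain for the cytokines that induce Muc5ac in allergy, was lower as well (4.92 and 3.34 against 11.8 and 11.8 FPKM, limma adjusted p = 0.0418), but not with any 1 library left out. Egfr, the growth factor receptor that can induce Muc5ac, was higher (21.97 and 28.9 against 4.50 and 2.22 FPKM, limma adjusted p = 0.00260), and not without labelled Sox2 replicate 2 (0.0734). Foxa3, a goblet cell factor downstream of Spdef, did not exceed 0.349 FPKM.

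Other mucin-type genes gave no call. Of 15 listed names 9 were found and 3 were tested, none of them past the threshold in limma. At an unadjusted p under 0.05 the count was 1, the endothelial sialomucin Emcn (difference 1.27, limma adjusted p = 0.130). The sialomucin Cd164 stood at 42.6 to 77.2 FPKM and the adhesion molecule Mcam at 18.1 to 28.5 FPKM, with groups that overlapped for both. The 6 untested ones did not exceed 0.420 FPKM, among them Muc2, Muc6, Muc13 and Muc19, while Muc15 and Tff1 were listed at 0.

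**Figure D3:**
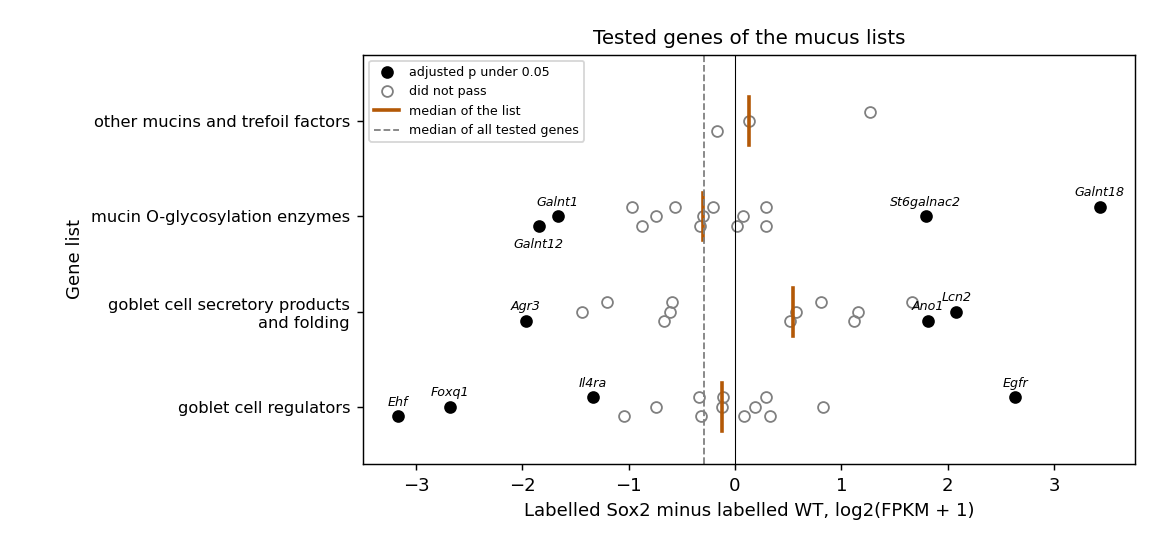
Difference between the labels for each tested gene of 4 mucus-related lists on the log2(FPKM + 1) scale, with filled points for genes past the threshold, a bar for the list median and the dashed line for the median of all tested genes. Galnt18 (3.43) and Egfr (2.64) lie farthest to the right, and Ehf (-3.17) and Foxq1 (-2.68) farthest to the left.

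Markers of other cell types differed between the labels as well. Where Muc5ac and Agr2 were higher, so were squamous markers, genes of layered linings (summed level of 9 genes 46.4 and 383 FPKM in the WT-labelled libraries against 4.27 and 3.35 FPKM). Of 7 tested, 4 were called higher there, beside 8.11% of all tested genes. However, 3 of these 4 (Krt4, Krt6a and Sprr2a1) reached the mean of 1 FPKM only through the WT-labelled libraries. They had to differ to be tested, so the count describes them only. The keratins Krt4 (16.99 and 74.6 against 0.168 and 0.133 FPKM) and Krt6a (3.23 and 78.9 against 0 and 0.0312 FPKM) were low in the Sox2-labelled libraries. Basal cell markers summed to 45.5 and 167 FPKM against 2.37 and 1.70 FPKM, and nearly all of the difference came from Dapl1 (41.6 and 149.99 against 0.234 and 0 FPKM). Dapl1 and Trp63 (2.38 and 14.4 against 0.0605 and 0.0293 FPKM) were called, both tested only through the WT-labelled libraries, and the keratin Krt15 did not pass (difference 0.13). The basal keratins Krt5 and Krt14 did not exceed 0.686 FPKM. For these lists, labelled WT replicate 2 had the highest sum, as it had the highest Muc5ac and Agr2. Their part in the levels of Muc5ac and Agr2 was not tested. Krt6a and the basal regulator Trp63 lost their calls under both rescalings and without either library labelled Sox2, and Krt6a also under the robust variance model.

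Gastric mucous markers, from an organ where Muc5ac is the surface mucin, summed to 9.91 and 8.13 FPKM in the Sox2-labelled libraries and to 2.80 and 1.74 FPKM in those labelled WT, and Gkn1, Gkn2 and Tff1 were listed at 0 in all 4. In every library the largest part of the sum came from the pepsinogen gene Pgc, the 1 gene tested. It was higher in the Sox2-labelled libraries (6.32 and 6.70 against 1.75 and 0.743 FPKM, limma adjusted p = 0.0188). In labelled Sox2 replicate 1 a further part came from Gkn3 (3.26 FPKM). AT2 markers were higher in the same libraries as Pgc, and which cells its RNA came from was not tested. Ctse ran the other way (0.0154 and 0.284 against 0.393 and 0.594 FPKM). Of the intestinal markers, Cdx2 and Hnf4a were listed at 0 too. Club cell markers, which belong to the airway cells that can turn into goblet cells, were mixed. Of 6 tested, Scgb3a2 was higher in the Sox2-labelled libraries, beside 4.2% of all tested genes, and 5 did not pass. The main club cell secretion Scgb1a1 had 3263 and 5594 FPKM in the Sox2-labelled libraries against 1796 and 1730 FPKM. It did not pass (limma adjusted p = 0.0629), but did with a pseudocount of 0.1 (0.0496), a filter at 5 FPKM (0.0407), the robust variance model (0.00836) or without labelled Sox2 replicate 1 (0.0486). Cyp2f2, a cytochrome of club cells, was highest in labelled WT replicate 2, the library with the most Muc5ac (94.3 and 107 against 72.6 and 376 FPKM). Its difference of -0.71 did not pass (limma adjusted p = 0.457). The difference was -1.89 without labelled WT replicate 1 and turned to 0.47 without labelled WT replicate 2.

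Where Muc1 and Muc20 were higher, AT1 and AT2 markers were higher. Over all tested genes 4.2% were called higher and 8.11% lower in the Sox2-labelled libraries. Of 10 tested AT1 markers 9 were higher in the Sox2-labelled libraries, and of 10 AT2 markers all 10, among them the surfactant genes Sftpc, Sftpb and Sftpa1. Those 3 surfactant genes lost their calls under the robust variance model and on leaving out either library labelled Sox2, and so did Sftpa1 under both rescalings and Sftpc without labelled WT replicate 2 (difference 1.82, limma adjusted p = 0.420). Leukocyte markers summed to 1147 and 844 FPKM against 256 and 64.5 FPKM (2 of 5 tested higher, Lyz2 and Csf1r). Most of that sum came from Lyz2, which is also an AT2 gene (1102 and 812 against 241 and 58.3 FPKM). The leukocyte genes Ptprc (limma adjusted p = 0.348) and Cd68 (0.983) overlapped between the groups and did not pass. Endothelial markers summed to 110 and 50.6 FPKM against 33.7 and 12.5 FPKM (2 of 6 higher). Mesothelial markers summed to 98.7 and 90.7 FPKM against 40.2 and 63.2 FPKM (1 of 3 tested higher, Gpm6a, which was tested only through the Sox2-labelled libraries), most of it from Msln, and their regulator Wt1 did not exceed 0.184 FPKM. Ciliated cell markers had 2 of 6 tested genes higher, Tppp3 and Sec14l3, and Sec14l3 lost its call under the robust variance model. The other 4 did not pass, among them Foxj1 (difference 0.26, limma adjusted p = 0.664). The untested Dnah5 was higher in both WT-labelled libraries. None of 6 mesenchymal and 3 red blood cell markers tested passed in limma with all 4 libraries (4 and 1 at an unadjusted p under 0.05). Without labelled WT replicate 1 the collagens Col1a1, Col1a2 and Col3a1 passed as higher in the Sox2-labelled libraries, and without labelled WT replicate 2 the red cell genes Hbb-b1, Hba-a1 and Alas2 did. Those fits hold 1 WT-labelled library and measure no spread within that label. Neuroendocrine markers did not exceed 0.807 FPKM. General epithelial markers were higher in the WT-labelled libraries (summed level 2085 and 2068 FPKM against 849 and 818 FPKM, 4 of 6 past the threshold). What these cells contribute to the levels of Muc1 and Muc20 was not tested.

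**Figure D4:**
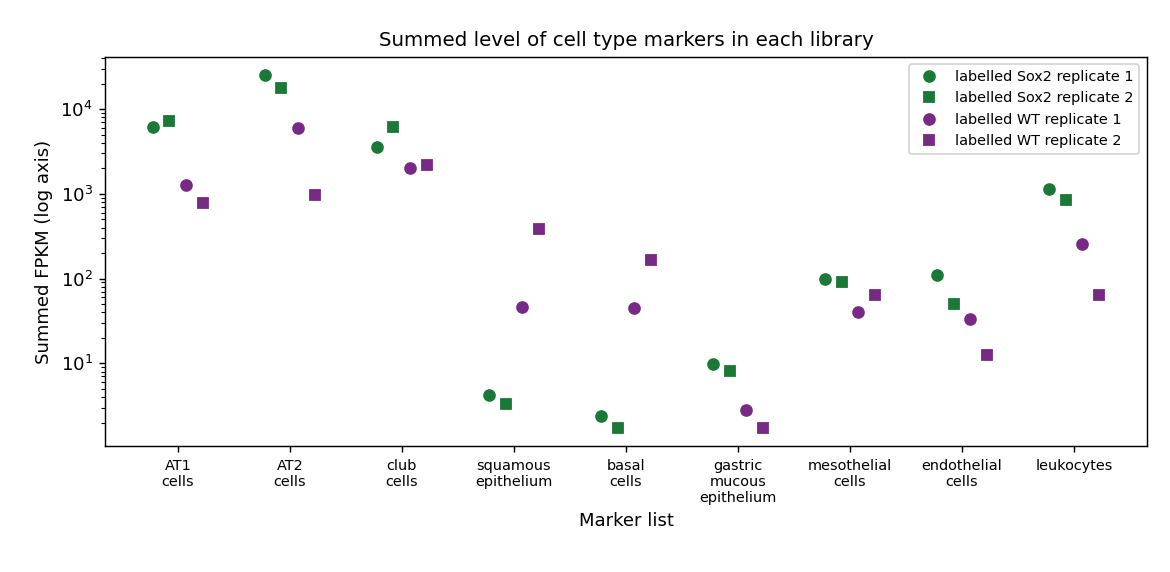
Summed FPKM of each cell type's marker list in each library, on a log axis. Squamous and basal sums are higher in both WT-labelled libraries, and all other sums drawn are higher in both Sox2-labelled libraries. The WT-labelled libraries lie apart from each other for AT2, squamous and leukocyte markers.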

How the data were processed

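RNA of sorted AT1 cells was measured in 4 libraries, 2 for each genotype label. The authors deposited FPKM values with lower and upper bounds per gene and library, per the file headers. TopHat2, Bowtie2, Cufflinks, Cuffdiff and build mm10 are named in the submitters' processing notes, whereas versions, annotation and strandedness were not stated in any source used here. The tables hold no counts, so sequencing depth is unknown, and the fragments quoted are implied by the bounds. The tables were joined by symbol (23990 genes, 1 left out for a failed status). A table with 2 group-value columns was not used because no label ties them to groups.

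Genes whose mean reached 1 FPKM were fitted in limma 3.58.1 (R 4.3.3) on log2(FPKM + 1), with a variance trend and Benjamini-Hochberg adjustment at 0.05. The log scale understates changes of low genes. The script was tested on simulated data. An exact permutation test of 2 libraries against 2 cannot reach 0.05 and was not used. Named genes were all members, Sox2, up to 4 genes per mucus list with the largest differences past the threshold (otherwise the 2 most abundant) and the first 3 of each marker list. Other genes named are examples chosen after their values were seen. Members and lists were chosen with earlier results of these data known. Alternatives were the pseudocount, the filter, rescalings, variance models, a replicate block and leaving out each library. Leaving out 1 library leaves 1 in its group, so the spread in those fits comes from the other label only.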

Additional observations from a re-analysis of the deposited data

How the results depend on the processing

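Over all genes, 506 were higher and 976 lower in the Sox2-labelled libraries. Without a filter on low values 0 and 3 passed (1251 and 2618 at an unadjusted p under 0.05 in limma), and no member did (0 higher, 0 lower). When the filter required a mean of 5 FPKM, 1 member passed as higher and 0 as lower. Under median-of-ratios rescaling 964 genes were higher, under quantile normalization 980, and 1 member was lower under each. With the replicate block 1142 genes were higher and 2730 lower, and the member counts stayed at 2 and 2. The block added calls for 8 named genes, all higher: Col1a1 (limma adjusted p = 0.0119), Col1a2 (0.00904), Col3a1 (0.00820), Hbb-b1 (0.00482), Hba-a1 (0.00927), Alas2 (0.0365), Pecam1 and Kdr. The labels do not say that a number pairs libraries, and with 2 pairs the correlation of the replicate differences (0.23 across genes) does not establish it. Leaving out 1 library gave 119 to 837 genes higher, 115 to 1312 lower, 0 to 2 members higher and 0 to 2 members lower. Of 31 named genes past the threshold, 9 passed with any 1 library left out and 26 under both rescalings. Cd164 (-0.17) turned to 0.18 under median-of-ratios rescaling and 0.18 under quantile normalization, and ranged from -0.52 to 0.18 with 1 library left out. That range was -0.12 to 0.39 for Mcam, -0.75 to 0.79 for Cd68, -1.89 to 0.47 for Cyp2f2 and -0.26 to 1.60 for Upk3b. The cause of these changes was not tested, except that fewer libraries or another set of tested genes entered those fits by construction. Muc5b, Spdef, Tff2 and Tff3 were under the filter and their differences were not tested.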
